A study of Mus musculus with 2 samples.

Results

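The genes described here encode the translocases that carry proteins into mitochondria: the TOM complex of the outer membrane, the TIM23 and TIM22 complexes of the inner membrane, and the small TIM chaperones between the membranes. Members were all genes whose symbol is Timm or Tomm followed by a digit, without a pseudogene ending, and with at least 1 protein-coding transcript. This rule gave 25 genes, 15 Timm and 10 Tomm, of 55536 annotated genes, 22015 of them nuclear protein-coding. The rule uses symbols and transcript types and no measured value, though the module was proposed with earlier results of these data known. The members lie on 16 chromosomes, and Timm17b and Timm8a1 are X-linked; coordinates are those of mm10.

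Total RNA was sequenced from the hearts of male adult B6CASTF1/J mice (the first-generation cross of C57BL/6J and CAST/EiJ) aged 18 to 20 months, with no genotype change or treatment given in the labels. The 2 libraries, replicate 2 and replicate 1, were each made from 300 ng of total RNA, to which the ERCC set of synthetic RNAs had been added. They form 1 group, so the only comparison the design holds is between the libraries. The labels number them as biological replicates 2 and 1, each with technical replicate 1. Both carry the same donor identifier under different biosample identifiers. Whether they come from separate animals therefore cannot be told, and differences between them may be technical. The p-values below come from 1 library against 1 and cover counting error only, with no estimate of the spread between samples.

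Almost all mitochondrial proteins are made in the cytosol and imported. Receptors of the TOM complex bind the precursors, which pass through the Tomm40 pore. Precursors with an N-terminal presequence go on through TIM23 and are pulled into the matrix by the motor of mitochondrial Hsp70 (Hspa9). Carriers of the inner membrane are handed by the small TIMs to TIM22. Heart muscle cells are packed with mitochondria and depend on oxidative metabolism.

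Sequences near the start sites are shown first, because nuclear genes of mitochondrial proteins are often described as targets of shared transcription factors. RefSeq's promoter table (build GRCm38.p6) held windows from 250 bases before to 50 bases after the start for 22 of the 25 members (24 windows, counted here by gene). The motif CCGGAAG, bound by ETS factors such as GABPA, was searched in both orientations. It occurred in 9 of these 22 members (40.9%), against 8.86% of all 32851 windows in the table. TPM is a length-scaled level that sums to the same total in each library. Of members averaging 1 TPM or more, 8 of 20 (40.0%) held the motif, against 20.9% of 8736 nuclear protein-coding genes above the same limit. NRF1's motif GCGCATGCG, YY1's motif AAGATGGCG and the ERRalpha motif TCAAGGTCA were each found in 1 member: NRF1's in Timm13, YY1's in Timm50 and ERRalpha's in Timm8b. Of all windows 1.75% held the NRF1 motif, 1.40% the YY1 motif and 0.423% the ERRalpha motif. Of the 8736 expressed genes 4.33% held the NRF1 motif, 3.84% the YY1 motif and 0.298% the ERRalpha motif, against 1 of 20 members (5%) for each. A match describes these letters only. In the stretches below, taken upstream of the RefSeq start and written 5′ to 3′ on the gene's strand, capitals mark the motifs. These 5 genes were chosen among those with the ETS motif, to show 1 pore-complex subunit, 1 receptor, 1 inner-membrane channel and 2 small TIMs.

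Tomm22, chr15:79670768-79670867, + strand: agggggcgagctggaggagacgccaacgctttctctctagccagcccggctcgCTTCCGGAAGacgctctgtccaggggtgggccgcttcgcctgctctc

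Tomm70a, chr16:57121614-57121713, + strand: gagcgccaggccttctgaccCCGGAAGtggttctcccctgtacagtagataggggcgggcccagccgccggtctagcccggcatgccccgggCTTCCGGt

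Timm23, chr14:32201892-32201969, - strand: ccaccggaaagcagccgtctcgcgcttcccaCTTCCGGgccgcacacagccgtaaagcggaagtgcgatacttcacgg

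Timm8b, chr9:50603801-50603900, + strand: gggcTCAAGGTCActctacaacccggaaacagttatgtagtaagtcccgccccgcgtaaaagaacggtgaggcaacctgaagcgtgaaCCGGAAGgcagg

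Timm10, chr2:84826921-84827020, + strand: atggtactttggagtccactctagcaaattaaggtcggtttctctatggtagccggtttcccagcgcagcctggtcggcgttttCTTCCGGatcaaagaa

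In the Tomm22 stretch both orientations of the ETS motif overlap in 1 palindrome. The Tomm70a stretch held 1 copy in each orientation. In the Timm8b stretch the first capitals are the ERRalpha motif and the second the ETS motif.

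Several members share their promoter region with a gene on the other strand. Of the 23 members at 1 TPM or more, 5 (21.7%) had the start of another coding gene within 1000 bases upstream, running away from theirs. The same held for 10.5% of 11116 expressed nuclear protein-coding genes. The neighbour could be any annotated nuclear coding gene, expressed or not. Timm8b starts 98 bases from Sdhd, which encodes a membrane subunit of respiratory complex II. Sdhd had 242 TPM in replicate 2 and 281 TPM in replicate 1. Timm23 starts 51 bases from Parg and Timm17b 88 bases from Pqbp1. The other two were Timm9, 164 bases from 2700049A03Rik, and Tomm6, 644 bases from Frs3. The partners' levels differed widely: Parg had 6.84 TPM in replicate 2 and 6.87 TPM in replicate 1, and Frs3 had 2.19 TPM in each.

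Total expected counts were 37281459 in replicate 2 and 38858481 in replicate 1, and the mitochondrial chromosome took 34.4% of them in replicate 2 and 29.3% in replicate 1. All 6 heart muscle markers were present, summing to 26831 TPM in replicate 2 and 32597 TPM in replicate 1. In the test described below Myl2 was called higher in replicate 2 (log2 ratio 0.02) and the others were called lower. Of the marker sums of other cells, those lower in replicate 2 were white adipocytes 4.26 TPM in replicate 2 and 26.4 TPM in replicate 1 (of which Lep was under 1 TPM in both), red blood cells 4837 TPM in replicate 2 and 7070 TPM in replicate 1, atrial muscle 190 TPM in replicate 2 and 296 TPM in replicate 1, macrophages 69.2 TPM in replicate 2 and 96.4 TPM in replicate 1 (all 3 markers called lower in the test described below) and fibroblasts 157 TPM in replicate 2 and 169 TPM in replicate 1. Of the fibroblast markers, only Col1a1 was called lower in the test described below (log2 ratio -0.56). Dcn (0.08) and Pdgfra (0.25) were called higher, so the fibroblast sum does not give the direction of each marker. Most of the atrial sum was Myl7 (log2 ratio -0.44), and Sln was at -0.33. Bmp10, also atrial, differed far more, with 1.55 TPM in replicate 2 and 18.5 TPM in replicate 1 (-3.44). Endothelial markers summed to 109 TPM in replicate 2 and 107 TPM in replicate 1. The near-equal sums hide single markers, since Kdr (log2 ratio 0.45) and Cdh5 (0.12) were called higher and Pecam1 was not called. The part of these cell types in the differences below was not tested. In bulk tissue, fewer cells of a type and less RNA per cell cannot be told apart.

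All 5 groups of members were expressed. Of the 25 members, 23 had at least 1 TPM in both libraries and 22 had at least 10 TPM in both. The median member had 30.4 TPM in replicate 2 and 37.4 TPM in replicate 1. Over the nuclear protein-coding genes averaging 1 TPM or more, the median was 7.88 TPM in replicate 2 and 8.68 TPM in replicate 1. The members summed to 928 TPM in replicate 2 and 1118 TPM in replicate 1, which was 0.259% of all nuclear protein-coding TPM in replicate 2 and 0.270% in replicate 1. By mean level 5 members stood among the first 1000 of the 22015 nuclear protein-coding genes, the highest being Timm17a at place 375. In the order of levels, the ranges over the 2 libraries overlapped for 14 of the 24 neighbouring pairs. Such ranges do not compare genes within a library, and tested members were all lower in replicate 2 on this scale. Several overlapping pairs kept their order in each library, such as Timm8b above Tomm5 and Timm13 above Tomm6. In the first table Timm17a came first, then Timm8b and Tomm5, then Timm23, and at the bottom Timm9, Timm8a1, Tomm34, Tomm20l and Timm8a2, but each neighbouring pair of the run of 11 genes between Timm10 and Timm21 overlapped. The top of this order did not hold elsewhere. Timm23 pooled with its copies, described below, had 127 TPM in replicate 2 and 166 TPM in replicate 1, overlapping Timm17a. In the second table Timm13 had 101 TPM in replicate 2 and 116 TPM in replicate 1, beside 99.9 TPM in replicate 2 and 124 TPM in replicate 1 for Timm8b.

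**Figure D1:**
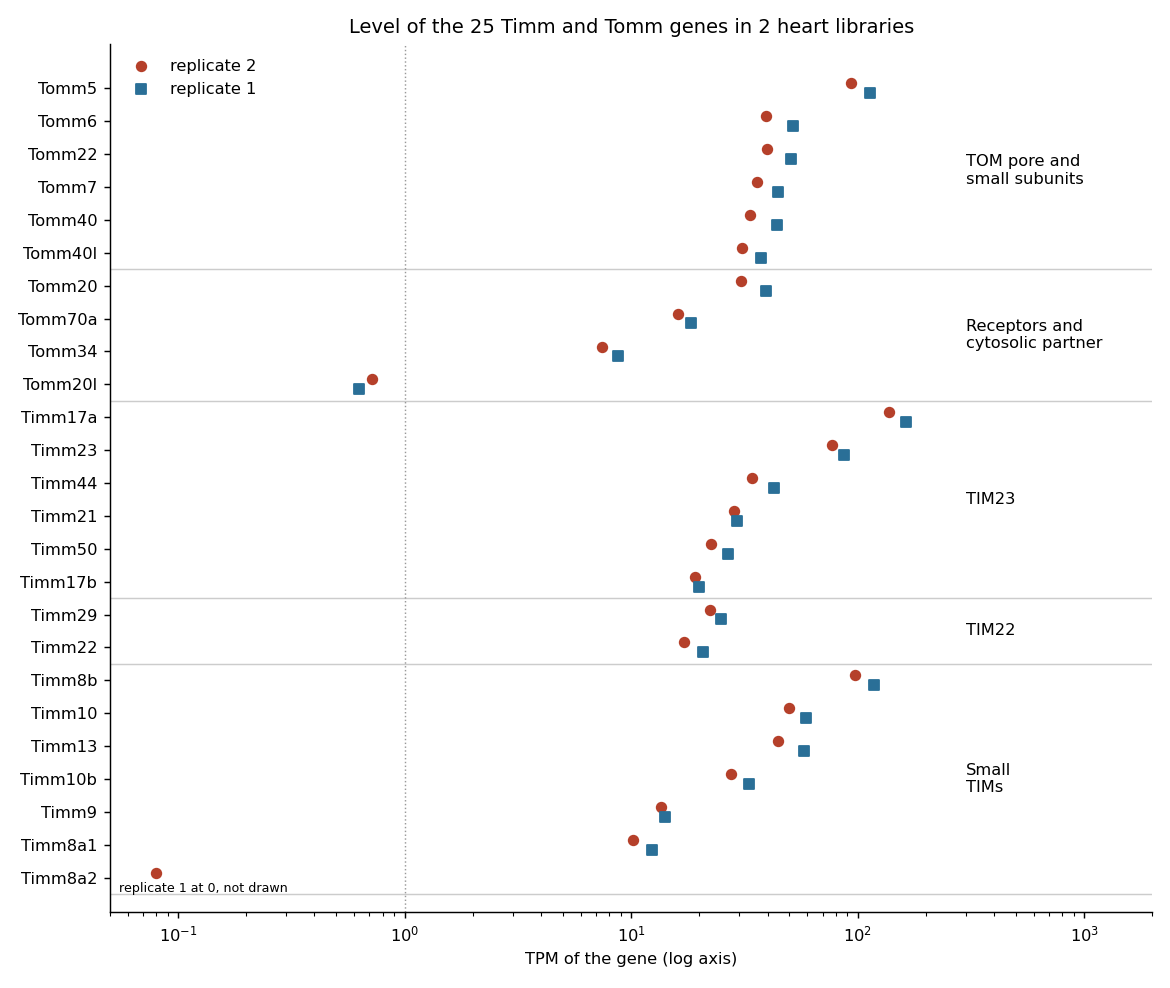
TPM of each member (log axis) in replicate 2 (circles) and replicate 1 (squares), grouped by machine and ordered by mean level; the dotted line marks 1 TPM. Timm17a is highest, at 138 TPM in replicate 2 and 163 TPM in replicate 1, and only Tomm20l and Timm8a2 lie under 1 TPM.

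In the pore complex of the outer membrane, the small subunit Tomm5 had 93.4 TPM in replicate 2 and 113 TPM in replicate 1, the highest of the TOM genes in both libraries. Its fellow small subunits Tomm6 (39.2 TPM in replicate 2, 51.9 TPM in replicate 1) and Tomm7 (36.1 TPM in replicate 2, 44.3 TPM in replicate 1) overlapped in range with Tomm40 and with Tomm22, the central organiser of the complex and docking site of the receptors. Within each library Tomm6 was above Tomm40, and Tomm7 was under Tomm22. Tomm22 had 39.8 TPM in replicate 2 and 50.9 TPM in replicate 1. Tomm40 (chr7:19701313-19715438), the beta-barrel that forms the pore, had 33.3 TPM in replicate 2 and 44.3 TPM in replicate 1. Over all transcripts its paralogue Tomm40l had nearly as much RNA, 31.0 TPM in replicate 2 and 37.4 TPM in replicate 1. The share of Tomm40 in the summed TPM of the pair was 53.0% ± 1.7 (SD, n = 2). Over all transcripts that order is not firm, since Tomm40 took 46.9% of the pair in the second deposited quantification and 49.1% of the expected counts. By coding transcripts alone Tomm40 was higher, with 32.6 TPM in replicate 2 and 43.8 TPM in replicate 1. Coding transcripts of Tomm40l had 18.75 TPM in replicate 2 and 21.6 TPM in replicate 1. Tomm40 was also the higher by coding transcripts in both libraries of the second quantification. The 6 genes summed to 273 TPM in replicate 2 and 342 TPM in replicate 1.

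Among the receptors, Tomm20, the receptor for presequences, had 30.4 TPM in replicate 2 and 39.3 TPM in replicate 1. This range overlapped with Tomm40, Tomm7 and Tomm40l. Tomm20 was under Tomm40 and Tomm7 in both libraries of the first table and above them in both libraries of the second. Tomm70a, which receives carriers and other precursors without a presequence, had 16.1 TPM in replicate 2 and 18.4 TPM in replicate 1. On the count scale Tomm70a was the deepest member in both libraries, with 2896 expected counts in replicate 2 and 3333 in replicate 1 along a leading transcript of 5964 bases. Tomm34, a cytosolic co-chaperone of Hsp70 and Hsp90, had 7.40 TPM in replicate 2 and 8.74 TPM in replicate 1. The Tomm20 paralogue Tomm20l was listed at 0.72 TPM in replicate 2 and 0.63 TPM in replicate 1, on 10 expected counts in replicate 2 and 9 in replicate 1. Tomm20 therefore made up 98.1% ± 0.5 (SD, n = 2) of the pair. Tomm20l overlaps the last 49 bases of Timm9 on the opposite strand.

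The channel of the TIM23 complex had the highest level of the module. Timm17a (chr1:135295213-135313778), one of the paralogues that pair with Timm23 in the channel, had 138 TPM in replicate 2 and 163 TPM in replicate 1. Timm17b, its X-linked paralogue, had 19.1 TPM in replicate 2 and 20.0 TPM in replicate 1. Timm17a thus held 88.5% ± 0.9 of the pair (SD, n = 2). Timm23 itself (chr14:32180162-32201898) had 76.8 TPM in replicate 2 and 87.3 TPM in replicate 1. Timm44, which anchors the import motor at the channel, had 34.2 TPM in replicate 2 and 42.6 TPM in replicate 1. Timm21, which links TIM23 to the TOM complex and to respiratory chain complexes, had 28.4 TPM in replicate 2 and 29.4 TPM in replicate 1. Timm50, the presequence receptor of the inner membrane, had 22.5 TPM in replicate 2 and 26.7 TPM in replicate 1. The 6 genes summed to 319 TPM in replicate 2 and 369 TPM in replicate 1.

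The carrier translocase had the lowest sum of the 5 groups, 39.4 TPM in replicate 2 and 45.8 TPM in replicate 1, over only 2 genes. Timm22, its channel, had 17.1 TPM in replicate 2 and 20.7 TPM in replicate 1. Timm29, a subunit known from animals, had 22.4 TPM in replicate 2 and 25.1 TPM in replicate 1. Their ranges did not overlap. Timm22 was near Timm17b of the TIM23 complex in level, and Timm29 near Timm50.

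The small TIMs are hexameric chaperones that escort hydrophobic precursors across the intermembrane space. Timm8b had 97 TPM in replicate 2 and 118 TPM in replicate 1, and Timm13, which forms a hexamer with Timm8 proteins, had 44.6 TPM in replicate 2 and 58.1 TPM in replicate 1. Timm8a1, the mouse counterpart of the gene mutated in human deafness-dystonia syndrome, had 10.2 TPM in replicate 2 and 12.4 TPM in replicate 1. Timm8b made up 90.5% ± 0.02 (SD, n = 2) of the summed TPM of Timm8b and Timm8a1. By expected counts the share of Timm8b was 75.1% in replicate 2 and 75.0% in replicate 1; the single transcripts are 518 bases long for Timm8b and 1421 bases for Timm8a1. Timm8a2 was listed at 0.08 TPM in replicate 2, from 2 expected counts, and at 0 in replicate 1.

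Among the carrier chaperones, Timm10 had 49.96 TPM in replicate 2 and 59.0 TPM in replicate 1. Its hexamer partner Timm9 had 13.6 TPM in replicate 2 and 14.2 TPM in replicate 1, far under Timm10 in both libraries. Timm10b, which sits with the TIM22 complex, had 27.5 TPM in replicate 2 and 33.2 TPM in replicate 1. Timm10 made up 64.3% ± 0.4 (SD, n = 2) of Timm10 and Timm10b. The 7 small TIM genes summed to 243 TPM in replicate 2 and 294 TPM in replicate 1.

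Between the libraries the members were compared by log2 ratios of scaled counts, replicate 2 over replicate 1, with TMM library sizes, and by an exact conditional binomial test adjusted (Benjamini-Hochberg) over the 12189 genes averaging 1 TPM or more. Of 23 tested members 8 were lower in replicate 2, 0 were higher and 15 did not pass at an adjusted p of 0.05; at an unadjusted p of 0.05, 10 were lower and 0 higher, against 20.8% lower and 14.6% higher of all tested genes. Over all tested genes 15.9% were called lower and 10.7% higher. Deeper genes are called more often: among the 8154 genes with at least 582 summed counts, the fewest of a tested member, 20.1% were called lower. The median log2 ratio was -0.12 over the members and -0.02 over all tested genes, and 21 of 23 member ratios were below 0. With spike-in sums as library sizes these medians were -0.03 and 0.08, 14 of 23 ratios were below 0, and Timm8b, Tomm5, Timm13 and Tomm7 were no longer called. None of the 23 differed by 1.5-fold or more, while 2.30% of all tested genes were called lower and 1.58% higher at that limit. All 23 lay within the central 95% of the 7309 nuclear protein-coding genes averaging 5 TPM or more, which ran from -0.43 to 0.31. The common biological coefficient of variation between the libraries was 11.0% over 14734 genes.

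Of the 8 called members, 5 were among the 6 genes of the pore complex. The others were 1 of 6 in TIM23 and 2 of 6 tested small TIMs. Among receptors and partners 0 of 3 tested were called, and in TIM22 0 of 2. Over all tested genes 15.9% were called lower, and 20.1% of the deeper genes described above. With spike-in sums as library sizes 3 of the 6 pore complex genes kept their call, against 8.12% of all tested genes called lower. The groups of members hold few genes and the difference between them was not tested. Tomm40 had the largest difference, with 1497 expected counts in replicate 2 and 2013 in replicate 1, a log2 ratio of -0.29 (95% interval -0.39 to -0.19; exact binomial, adjusted p = 5.1e-08). Tomm6 followed at -0.27 (interval -0.41 to -0.14; adjusted p = 0.00056), on 756 expected counts in replicate 2 and 1006 in replicate 1. Tomm22 was at -0.25 with an interval from -0.36 to -0.14 (adjusted p = 7.0e-05). The log2 ratio was -0.17 for Tomm7 and -0.15 for Tomm5. Tomm40l, the pore paralogue, was at -0.07 and was not called (adjusted p = 0.34).

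Elsewhere the calls were Timm44 at -0.22 (interval -0.31 to -0.13), Timm13 at -0.25 (interval -0.39 to -0.11) and Timm8b at -0.15 (interval -0.26 to -0.04), with adjusted p of 2.6e-05, 0.0024 and 0.029 in the exact binomial test. Timm10b had a ratio as low as these, -0.26, and missed the threshold (adjusted p = 0.050) on 337 expected counts in replicate 2 and 443 in replicate 1. Timm17a was at -0.06 (interval -0.14 to 0.01) and Tomm70a at -0.07 (interval -0.14 to 0.01), both narrow intervals at the depth of these genes. Timm9 at 0.07 and Timm21 at 0.03 were the only members above 0, and neither was called. On the TPM scale all 23 tested members were lower in replicate 2, with a median log2 ratio of -0.27. Nuclear protein-coding genes had a median of -0.15 on that scale and summed to 358127 TPM in replicate 2 and 414428 TPM in replicate 1.

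**Figure D2:**
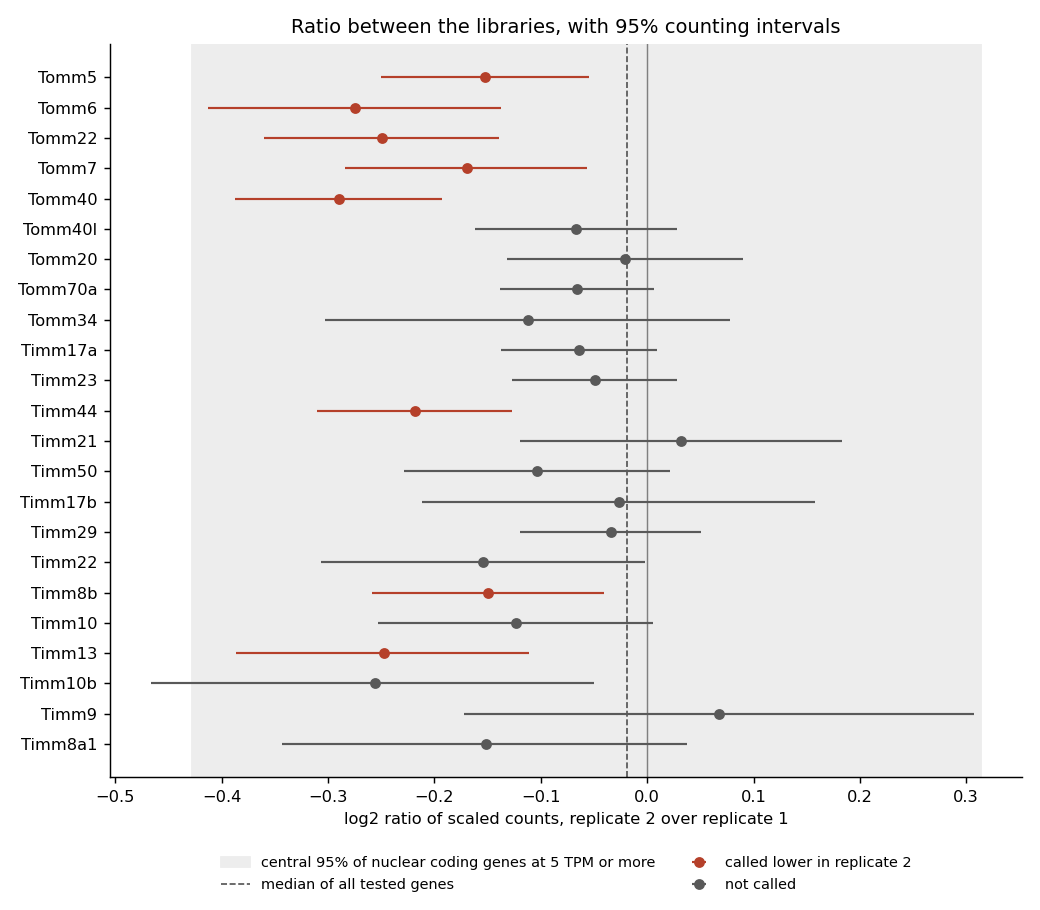
Log2 ratio of scaled counts (replicate 2 over replicate 1) of the 23 tested members, with 95% exact intervals that cover counting error only; the grey band is the central 95% of nuclear protein-coding genes averaging 5 TPM or more. The 8 members called lower are in red, 5 of them in the pore complex, and every point lies within the band.

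The reads of Timm23 could not be firmly divided from those of a near-identical copy. Gm10273 is a single-exon gene annotated as protein-coding at chr10:59395632-59396757, + strand (mm10), with 1 transcript of 1126 bases. Aligned to the 1173 bases of Timm23-201, the leading Timm23 transcript, it matched 1123 of 1126 bases (99.7%). The coding sequence of Timm23-201, 630 bases with its stop codon, was identical in both. The 3 differences, counted from 1 at the first base of Timm23-201 and with the Timm23 base first, were G145A before the coding sequence and C1149A and C1150A after it. The first 60 coding bases are printed as an example of what the 2 transcripts share.

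Timm23-201 and Gm10273-201, coding bases 1 to 60: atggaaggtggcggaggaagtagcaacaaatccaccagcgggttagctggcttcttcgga

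Of the 1974 distinct stretches of 100 bases in the 8 annotated transcripts of Timm23, 922 (46.7%) also occur in Gm10273. Timm23-201 alone held 97.4% of the gene's TPM in the first table, and the shared part of that transcript's stretches was not counted separately. The gene table gave Timm23 2508 expected counts in replicate 2 and 2854 in replicate 1. It gave Gm10273 1567 expected counts in replicate 2 and 2492 in replicate 1, or 49.8 TPM in replicate 2 and 78.7 TPM in replicate 1. The second quantification, made from the reads without those alignments, divided the reads otherwise. There Timm23 had 3019 estimated counts in replicate 2 and 1763 in replicate 1. Gm10273 and 3 further copies had 956 in replicate 2 and 3636 in replicate 1, so the copies held 24.1% of the pooled reads in replicate 2 and 67.3% in replicate 1. Timm23 alone then came out as higher in replicate 2, at a log2 ratio of 0.95 (exact binomial, adjusted p = 6.7e-109), and Gm10273 at -1.75. Pooled, both quantifications gave nearly the same ratio, -0.26 in the first (interval -0.31 to -0.20; adjusted p = 3.9e-16) and -0.27 in the second. The level of Timm23 and its ratio between the libraries are therefore reported as uncertain.

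**Figure D3:**
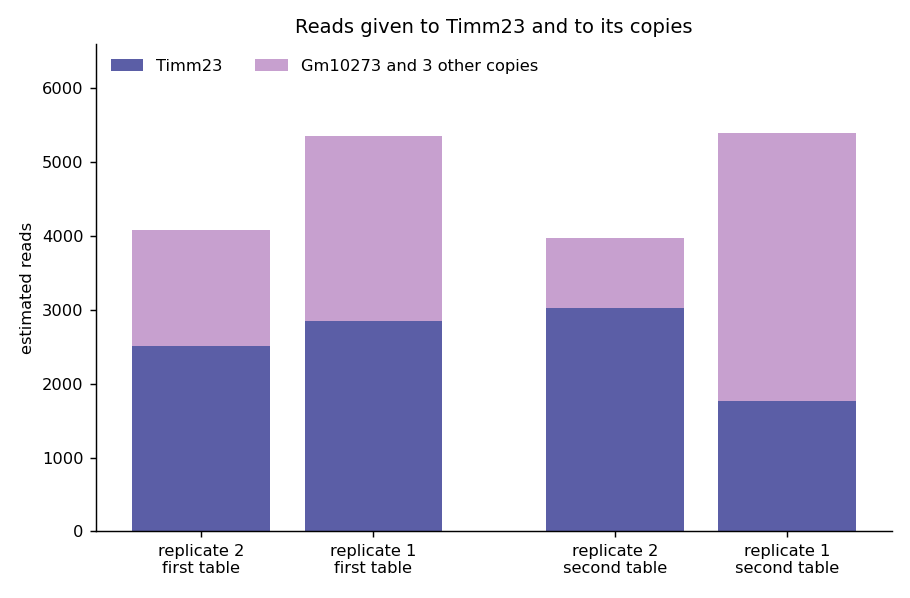
Estimated reads given to Timm23 (dark) and to Gm10273 with 3 other copies (light), stacked, in replicate 2 and replicate 1 of the first and second quantification. The stack heights nearly repeat between the quantifications (4075 and 3975 in replicate 2, 5349 and 5399 in replicate 1), while the division differs.

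Of the 25 members, 17 had no 100-base stretch in common with another gene's transcripts. Timm8a1 shared 38.8% of its stretches with the pseudogene Gm9797, which was given 25.1 expected counts in replicate 2 and 64.5 in replicate 1. Tomm20 shared 3.7% with the pseudogene Gm14494, which was given 300.0 expected counts in replicate 2 and 347 in replicate 1, about as many TPM as Tomm20 itself (29.1 TPM in replicate 2, 33.5 TPM in replicate 1). Tomm6 overlaps the read-through gene Gm21981 over 1648 bases of the same strand and shared 62.1% of its stretches with it. Only 15.1 expected counts in replicate 2 and 12.9 in replicate 1 went to Gm21981. Timm10b shared 8.1% with the read-through gene Gm45799. With these 5 members pooled with their sharers, 11 of 23 were lower in replicate 2, against 16.0% of all tested genes. The 3 gained calls were Timm23, Timm10b and Timm8a1. This pooling was added after the values were seen.

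For most members the level came from protein-coding transcripts. Of the 23 tested members, 21 had a coding transcript as the leading one, and 18 drew over 90% of their TPM from coding transcripts. The median coding share was 98.4% over the members and 94.7% over 11110 nuclear protein-coding genes. The 2 members under 50% (8.70%, against 6.91% of those genes) were Timm17a and Timm21. In the second table Timm17a was above 50% (57.2% in replicate 2, 58.1% in replicate 1) and Timm13 below it (40.9% in replicate 2, 45.6% in replicate 1). Timm50 (57.2% in replicate 2, 40.7% in replicate 1) and Timm10b (47.8% in replicate 2, 54.2% in replicate 1) lay on both sides of 50% there, and the members led by a transcript that is not coding were Timm13, Timm10b and Timm21.

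In Timm17a, the retained-intron transcript Timm17a-204, 565 bases long, had 70.0 TPM in replicate 2 and 91.0 TPM in replicate 1. The short coding transcript Timm17a-203 had 62.7 TPM in replicate 2 and 66.6 TPM in replicate 1. The full-length coding transcript Timm17a-201, of 7280 bases, had only 4.98 TPM in replicate 2 and 5.22 TPM in replicate 1, yet 1096 expected counts in replicate 2 and 1157 in replicate 1 were assigned to it, more than to Timm17a-204 in replicate 2 and more than to Timm17a-203 in both. Counting coding transcripts alone, Timm17a had 67.8 TPM in replicate 2 and 72.0 TPM in replicate 1 and stood at place 4 among the members, against place 1 by all transcripts, behind Timm8b, Tomm5 and Timm23. In the second table its coding transcripts had 133 TPM in replicate 2 and 166 TPM in replicate 1, above those of every other member, and the coding Timm17a-203 led.

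In Timm21, the single coding transcript Timm21-201 had 2.82 TPM in replicate 2 and 3.49 TPM in replicate 1, a coding share of 10.9% ± 1.4 (SD, n = 2). The leading transcript was Timm21-206, a processed transcript of 575 bases, with 10.4 TPM in replicate 2 and 11.6 TPM in replicate 1. By coding transcripts alone Timm21 stood at place 23, the last of the tested members, against place 15 by all transcripts. The second quantification gave a like coding share, 9.54% in replicate 2 and 11.4% in replicate 1. Total RNA also holds unspliced RNA, and short transcripts receive high TPM from few reads, so these shares describe how the reads were assigned.

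Intermediate coding shares were seen for Tomm40l (59.1%), Timm17b (63.2%) and Timm10b (69.8%). Tomm20 was fully coding but was led by Tomm20-202, of 458 bases, which had 23.7 TPM in replicate 2 and 32.3 TPM in replicate 1. Most Tomm20 counts lay on the longer Tomm20-201 of 4902 bases, 994.5 in replicate 2 and 1042 in replicate 1. Tomm20 had a log2 ratio of -0.02 on counts and -0.37 on TPM, and the share of Tomm20-202 was 77.8% in replicate 2 and 82.1% in replicate 1.

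**Figure D4:**
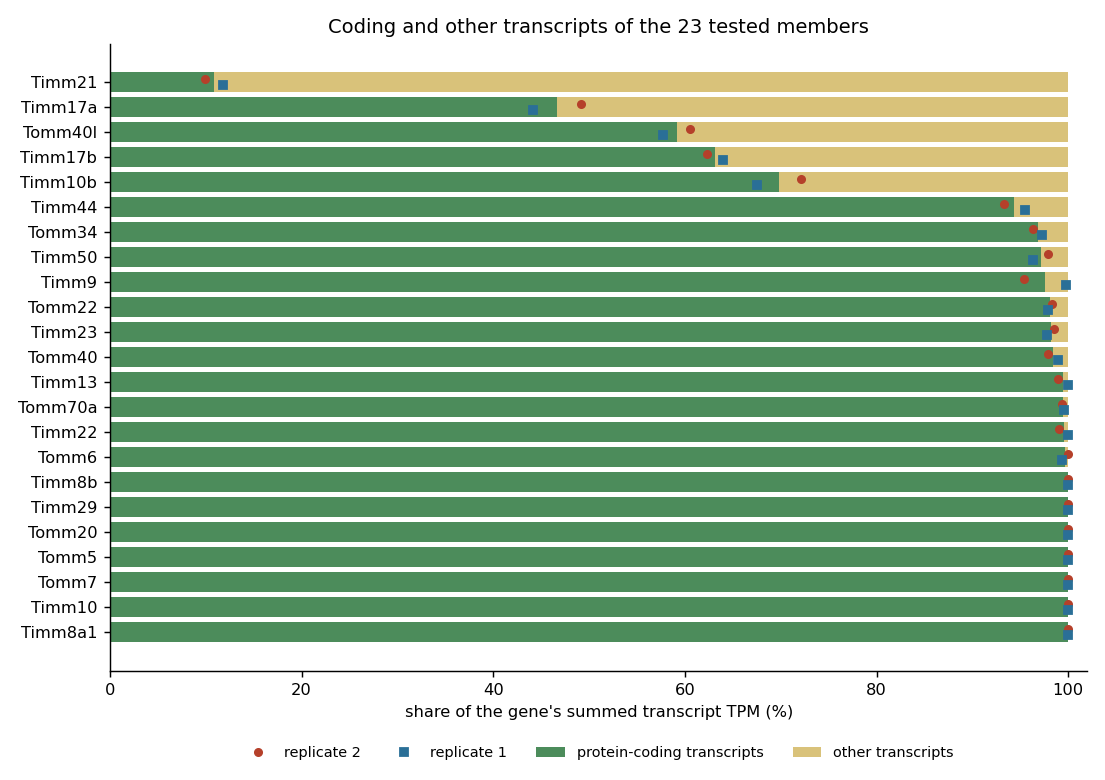
Share of each tested member's summed transcript TPM from protein-coding transcripts (green) and from other transcripts (yellow), mean of both libraries, with points for replicate 2 (circles) and replicate 1 (squares). Timm21 (10.9% coding) and Timm17a (46.7%) stand below 50%, and 18 members exceed 90%.

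The 2 quantifications gave different levels for several members. The second over the first gave a median log2 ratio of TPM of 0.34 over the members in replicate 2 and 0.22 in replicate 1. Nuclear protein-coding genes had a median of 0.17 in replicate 2 and 0.16 in replicate 1. Once both tables were rescaled over nuclear protein-coding genes the members' median over both libraries turned from 0.27 to -0.06. The rescaling shifts all genes of a library by the same amount. It therefore leaves the distance between the members and the other genes unchanged, and the other genes' rescaled median was not computed. Timm13 rose most in the second table in replicate 2, to 101 TPM, against 44.6 TPM in the first. In replicate 1 Timm13 had 116 TPM in the second table and 58.1 TPM in the first. The retained-intron transcript Timm13-202 was given 59.8 TPM in replicate 2 and 62.9 TPM in replicate 1 by the second table, against 0.50 TPM in replicate 2 and 0 in replicate 1 by the first. Coding transcripts of Timm13 differed less, at 41.4 TPM in replicate 2 and 52.7 TPM in replicate 1 in the second table and 44.1 TPM in replicate 2 and 58.1 TPM in replicate 1 in the first. Tomm7, a gene with a single transcript of 1125 bases, was lower in the second table in both libraries, by a log2 ratio of -0.53 in replicate 2 and -0.55 in replicate 1. The leading transcript was the same in both libraries for 18 of the 19 members with several transcripts, and the same in both libraries and both quantifications for 11.

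**Figure D5:**
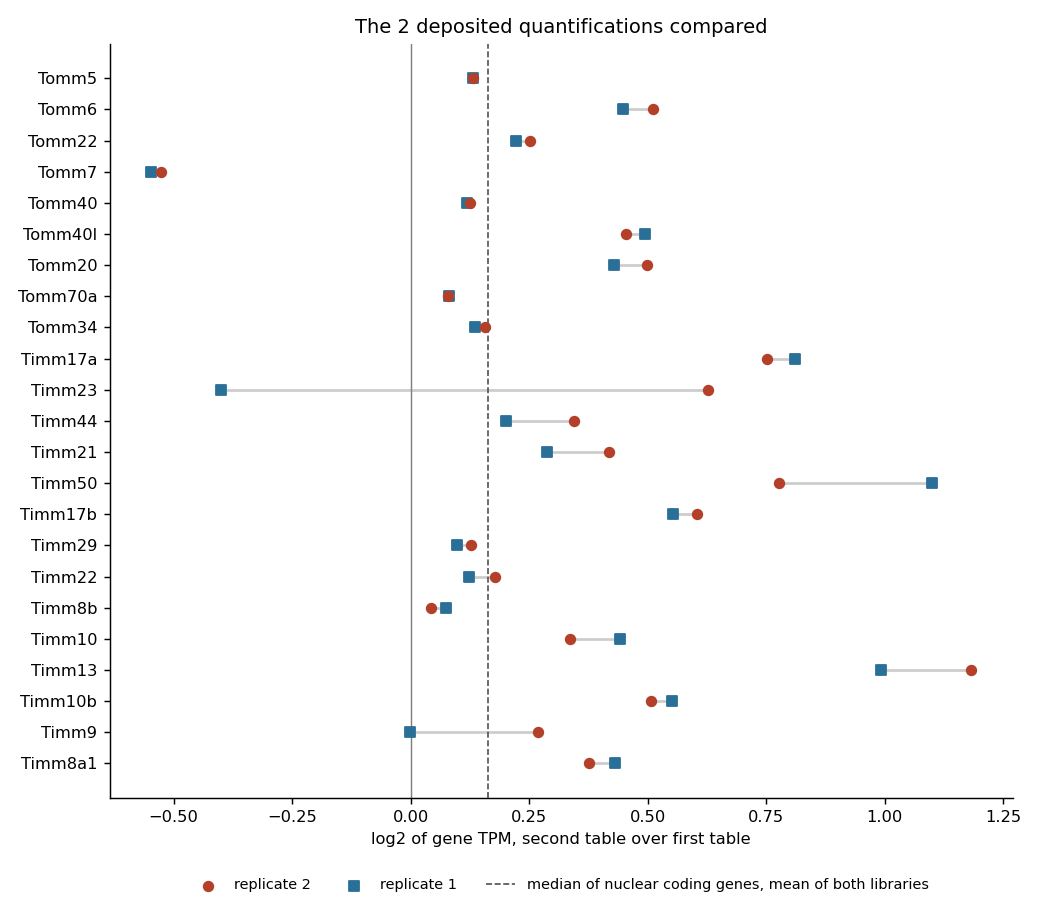
Log2 ratio of gene TPM, second over first quantification, for replicate 2 (circles) and replicate 1 (squares) of each tested member; the dashed line is the median of nuclear protein-coding genes. Timm23 alone lies clearly on opposite sides of 0 in the libraries (0.63 in replicate 2 and -0.40 in replicate 1), and Timm13 and Timm50 lie farthest right.

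In the second quantification 12 members were lower in replicate 2 and 1, Timm23, was higher, of 24 tested. Over all 12305 genes tested there 17.7% were lower and 10.3% higher. The 8 members called lower in the first quantification were called lower in the second too, and the others there were Timm10b, Timm50, Tomm70a and Timm8a1.

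The other genes of mitochondrial import showed a like spread between the libraries. Of 24 such genes, all tested, 8 were lower in replicate 2, 0 were higher and 16 did not pass (12 lower and 0 higher at an unadjusted p of 0.05), with a median log2 ratio of -0.11. Over all tested genes 15.9% were lower and 10.7% higher (20.8% and 14.6% at the unadjusted p). Hspa9, the Hsp70 of the import motor, had 225 TPM in replicate 2 and 268 TPM in replicate 1, above every Timm and Tomm gene in the first table (log2 ratio -0.11, called lower). The matrix chaperonin Hspd1 had 137 TPM in replicate 2 and 169 TPM in replicate 1 (-0.19, lower). Romo1, related to a yeast subunit of TIM23, had 125 TPM in replicate 2 and 157 TPM in replicate 1 (-0.24, lower). Samm50, which inserts beta-barrel proteins such as Tomm40 into the outer membrane, had 104 TPM in replicate 2 and 126 TPM in replicate 1 (-0.16, lower).

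Pmpcb, a subunit of the presequence peptidase, had 110.1 TPM in replicate 2 and 107 TPM in replicate 1 and did not pass, at a log2 ratio of -0.01. Dnajc15, a J protein of the inner membrane, was at -0.02 and did not pass either. The lowest ratio was that of Mtx3, -0.43 on 222 expected counts in replicate 2 and 329 in replicate 1 (called lower), and the highest that of Mtx1, 0.09 (not called). The remaining calls, all lower, were Hspe1, Grpel1 and Agk. Agk, a lipid kinase that is also a TIM22 subunit in human cells, had 5.20 TPM in replicate 2 and 6.95 TPM in replicate 1, under both Timm22 and Timm29.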

How the data were processed

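Values are those the authors deposited for 2 total RNA-seq libraries. Gene and first transcript tables hold expected counts and TPM made from transcriptome alignments, and a second transcript table holds estimated counts and TPM made from the reads and an index, per the deposited file list, which names build mm10 and annotation GENCODE M21. Tools and versions are not given in the sources used here. First-table effective lengths are those of single reads of 100 bases.

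Members were matched by gene identifier, and second-table values were summed per gene. Expected counts were rounded. TMM library sizes came from edgeR 4.0.16 in R 4.3.3, with spike-ins left out. The two-sided exact conditional binomial test (scipy 1.17.1, Python 3.11.15) with Benjamini-Hochberg adjustment over genes averaging 1 TPM or more compares the libraries, not conditions. Log2 ratios used a prior count of 2. The test was checked on simulated data with counting error only, so the check does not cover spread between samples. Intervals cover counting error only. Coordinates are from GENCODE M21 or RefSeq (GRCm38.p6). All members are named; of the other import genes, the 6 highest by mean TPM and the extreme ratios each way were to be named, and Hspe1, Grpel1 and Agk were added after their values were seen. Members, lists, motifs and promoters shown were chosen with earlier results of these data known. Alternatives were other library sizes (DESeq2 1.42.0, totals, spike-ins), filters, prior counts, scalings, tables and single libraries.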

Additional observations from a re-analysis of the deposited data

How the results depend on the processing

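The calls, and the direction of uncalled members near 0, depended on the library sizes. The log2 ratio of library sizes, replicate 2 over replicate 1, was -0.14 with TMM and -0.12 with DESeq2. It was -0.06 with total counts and -0.23 with spike-in sums. With total counts 17 of 23 members were lower in replicate 2 (28.5% of all tested genes), and with spike-in sums 4 (8.12%: Tomm6, Tomm22, Tomm40 and Timm44); the median log2 ratio was -0.20 with totals and -0.03 with spike-in sums. The median of all tested genes moved to -0.10 with totals and 0.08 with spike-ins. No member was called higher under either. DESeq2 size factors gave 9 lower (17.5% of all tested genes), and a mean TPM of at least 5 gave 9 lower (21.9%). No filter gave 7 lower, without Timm8b (7.62% of 23968 genes), and pooling with sharing genes gave 11 lower (16.0%). The second table called 13 of 24 tested members, 12 lower and 1, Timm23, higher. Of all 12305 genes tested there, 17.7% were lower and 10.3% higher. Requiring 1.5-fold left 0 of the members and 0 of the other import genes, of which totals called 17. Ratios of uncalled members changed sign with spike-in sums: Timm17a 0.030, Timm23 0.045, Tomm20 0.074, Tomm40l 0.027, Timm29 0.060, Timm17b 0.067 and Tomm70a 0.029. With totals Timm21 was at -0.045 and Timm9 at -0.0096. Timm23 was at 0.95 in the second table. Tomm40 held 46.9% of its pair with Tomm40l in the second table and 49.1% of counts.

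The median level of the 25 members was 43.6 TPM in the second table, 87.7 when rescaled over nuclear protein-coding genes and 24.1 from coding transcripts alone, and the summed level was 1347 TPM in the second table, 2646 when rescaled and 880 TPM from coding transcripts. The median ratio of the tables was 0.27 as deposited and -0.061 when rescaled. Leaving out a library gave median levels of 30.4 to 37.4 TPM, sums of 928 to 1118 TPM and table ratios of 0.22 to 0.34. The causes of these changes were not tested beyond what each setting alters by construction. No paired analysis was possible because there is 1 group, and ratios between the libraries need both.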
